A study of Mus musculus with 9 samples.

Results

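The lysosomal cathepsins examined here were the products of 10 genes, Ctsa, Ctsb, Ctsc, Ctsd, Ctse, Ctsh, Ctsk, Ctsl, Ctss and Ctsz. Every array probe whose accession belongs to one of these genes was taken, which gave 15 probes among 41174 on the array (3 for Ctsa, 2 each for Ctsb, Ctsd and Ctsz, and 1 for each of the others). All 15 were bright enough on at least 3 arrays to be tested, and where a gene had several, the probe with the highest mean level stood for it, so that 10 genes were followed among 15808 named genes tested. The cells were FDCPmix, a mouse multipotent blood progenitor line kept under self-renewing conditions, and all samples came from this line. They carried an empty lentivirus (EV), or a Lentilox 3.7 lentivirus with an shRNA against Gata2 (Gata2 KD) or against Pu.1 (Pu.1 KD, Pu.1 being the common name of Spi1), and viable GFP+ cells were sorted 5 days after transduction. Each group had 3 samples, 1 array each, and the Gata2 shRNA is described in the singular, so that the knockdown may rest on 1 sequence.

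Cathepsins are proteases of the lysosome. Most belong to the papain family of cysteine proteases (Ctsb, Ctsc, Ctsh, Ctsk, Ctsl, Ctss and Ctsz), Ctsd and Ctse are aspartic proteases, and Ctsa is a serine carboxypeptidase. Outside the lysosome the cysteine cathepsins are held in check by cystatins and stefins. Cathepsins are made as inactive proenzymes and delivered to the lysosome largely by mannose 6-phosphate receptors. In blood cells they are best known from macrophages and other antigen-presenting cells, where cathepsin S trims the invariant chain (Cd74) from MHC class II molecules, and from granulocytes and mast cells, where cathepsin C activates the granule serine proteases.

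The sequences just upstream of the transcription start are shown for the cathepsins with the largest changes for which a window was at hand (Ctss and Ctsz), and for Ctsd, whose level did not pass the test in any comparison. They come from RefSeq on the build GRCm38.p6, cover the 250 bases before the annotated start and are written 5′ to 3′ on the gene's strand. The windows are chr3:95526536-95526785 on the plus strand for Ctss, chr2:174439040-174439289 on the minus strand for Ctsz and chr7:142387828-142388077 on the minus strand for Ctsd. Capitals mark matches to the motifs named after them.
Ctss: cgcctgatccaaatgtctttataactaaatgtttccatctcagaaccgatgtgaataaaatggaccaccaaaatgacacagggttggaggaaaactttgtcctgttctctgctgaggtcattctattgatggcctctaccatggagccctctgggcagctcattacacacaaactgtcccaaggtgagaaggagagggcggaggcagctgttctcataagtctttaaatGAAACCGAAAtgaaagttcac
Ctsz: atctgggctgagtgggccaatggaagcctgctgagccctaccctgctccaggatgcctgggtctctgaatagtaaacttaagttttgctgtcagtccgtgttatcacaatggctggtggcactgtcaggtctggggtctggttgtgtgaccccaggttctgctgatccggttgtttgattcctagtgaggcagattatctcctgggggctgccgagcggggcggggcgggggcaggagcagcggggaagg
Ctsd: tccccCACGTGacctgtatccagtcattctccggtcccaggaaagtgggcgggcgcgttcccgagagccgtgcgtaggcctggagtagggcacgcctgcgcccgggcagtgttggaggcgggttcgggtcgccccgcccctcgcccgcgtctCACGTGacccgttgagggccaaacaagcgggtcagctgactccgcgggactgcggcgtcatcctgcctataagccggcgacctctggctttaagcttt
Motifs were searched on both strands, and only full matches were counted. They were the PU.1 motif GGAAGTG, the GATA factor motif AGATAAG, the E box CACGTG, which forms the core of the lysosomal CLEAR element and reads the same on both strands, and the repeat bound by interferon regulatory factors, 2 copies of GAAA with any 2 bases between them. The last was added after the Ctss sequence had been read. The Ctss window held 1 match to this repeat, its first base 21 bases before the start, a repeat found in 2.98% of 32851 promoter windows. In the Ctsd window there were 2 matches to the E box, 98 and 245 bases before the start, a motif found in 6.02% of windows. No full match to any of the motifs lay in the Ctsz window. Looser forms, WGATAR for GATA factors (W being A or T, R being A or G) and GGAAG for the ETS family of PU.1, were not searched. Both can be read in the Ctsz window, but how often they occur in other windows was not counted. The PU.1 motif (8.55% of windows) and the GATA motif (2.74%) had no match in the windows of the 7 cathepsin genes that had one (Ctsa, Ctsc, Ctsd, Ctsk, Ctsl, Ctss and Ctsz). The E box was also matched in the window of Ctsl and in that of the second Ctsa start, but both windows lay inside the annotated extent of their own gene (250 of 250 bases), so that they are not shown. Ctsk and Ctss are neighbouring protein-coding genes on chromosome 3.

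The arrays were of similar quality. The scanner placed 80.4% to 89.6% of spots well above background and flagged 0 as saturated, and the 75th percentile over probes lay between 439 and 587 intensity units. EV replicate 3 stood slightly apart, with a mean correlation with the other arrays of 0.960, against 0.971 or more for each of the others. The 3 slides each held 1 array of every group, and the first principal component (36.5% of the variance) separated mostly slides while the second (28.4%) separated groups, so differences within slides are given below. Levels are log2 processed signals relative to the 75th percentile of the array, so that they can be compared between arrays for 1 probe, but not between genes. A gene was called when its p from limma, adjusted by Benjamini and Hochberg's method across the 36585 probes tested, was under 0.05. The targeted genes followed their labels: in Gata2 KD Gata2 fell by 1.61 (log2, SE 0.23, limma adjusted p = 0.00414), and Spi1 fell by 1.73 in Pu.1 KD (SE 0.16, adjusted p = 0.00178) and higher by 1.39 in Gata2 KD (SE 0.16, adjusted p = 0.0012). Kit, Cd34, Myb and the other stem and progenitor markers examined (8 of 8) were well above background on all 9 arrays.

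After Gata2 knockdown 4 of the 10 cathepsin genes were called higher than in EV (Ctss, Ctsh, Ctsz and, close to the threshold, Ctsa) and 0 were called lower. Over all named genes 4.21% were called higher and 2.95% lower in this comparison. The median change of the 10 genes was 0.56 on the log2 scale, beside -0.09 over all 15808 genes. For 7 of the 10, all Gata2 KD samples lay above all EV samples, a separation seen in 9.50% of all genes. In Pu.1 KD 0 cathepsin genes were called higher than in EV and 1 was called lower (Ctsl), against 1.45% and 2.16% of all genes. The median change was -0.28, beside -0.04 over all genes, and for 3 of the 10 (Ctsl, Ctsc and Ctsa) all Pu.1 KD samples lay below all EV samples, a separation seen in 11.9% of all genes. Set directly against Pu.1 KD, Gata2 KD had 6 cathepsin genes called higher (Ctss, Ctsh, Ctsl, Ctsz, Ctsa and Ctsc) and 0 lower, where 6.77% and 5.60% of all genes were called. In 7 of the 10 all Gata2 KD samples lay above all Pu.1 KD samples, against 14.3% of all genes. Without adjustment, p was under 0.05 for 6 genes in Gata2 KD against EV, all higher (7.72% of all genes), for 4 in Pu.1 KD against EV, all lower (8.38%), and for 7 between the knockdowns, all higher in Gata2 KD (10.8%). With the slide as a block, 4, 2 and 7 genes were called, Ctsc being added in Pu.1 KD against EV and Ctsb between the knockdowns. When EV replicate 3 was left out, 4, 1 and 6 genes were called, Ctsl taking the place of Ctsa in the first count. Both comparisons against EV use the same 3 EV arrays. Since the RNA came from bulk cells, fewer cells of a type and less RNA per cell cannot be told apart.

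**Figure D1:**
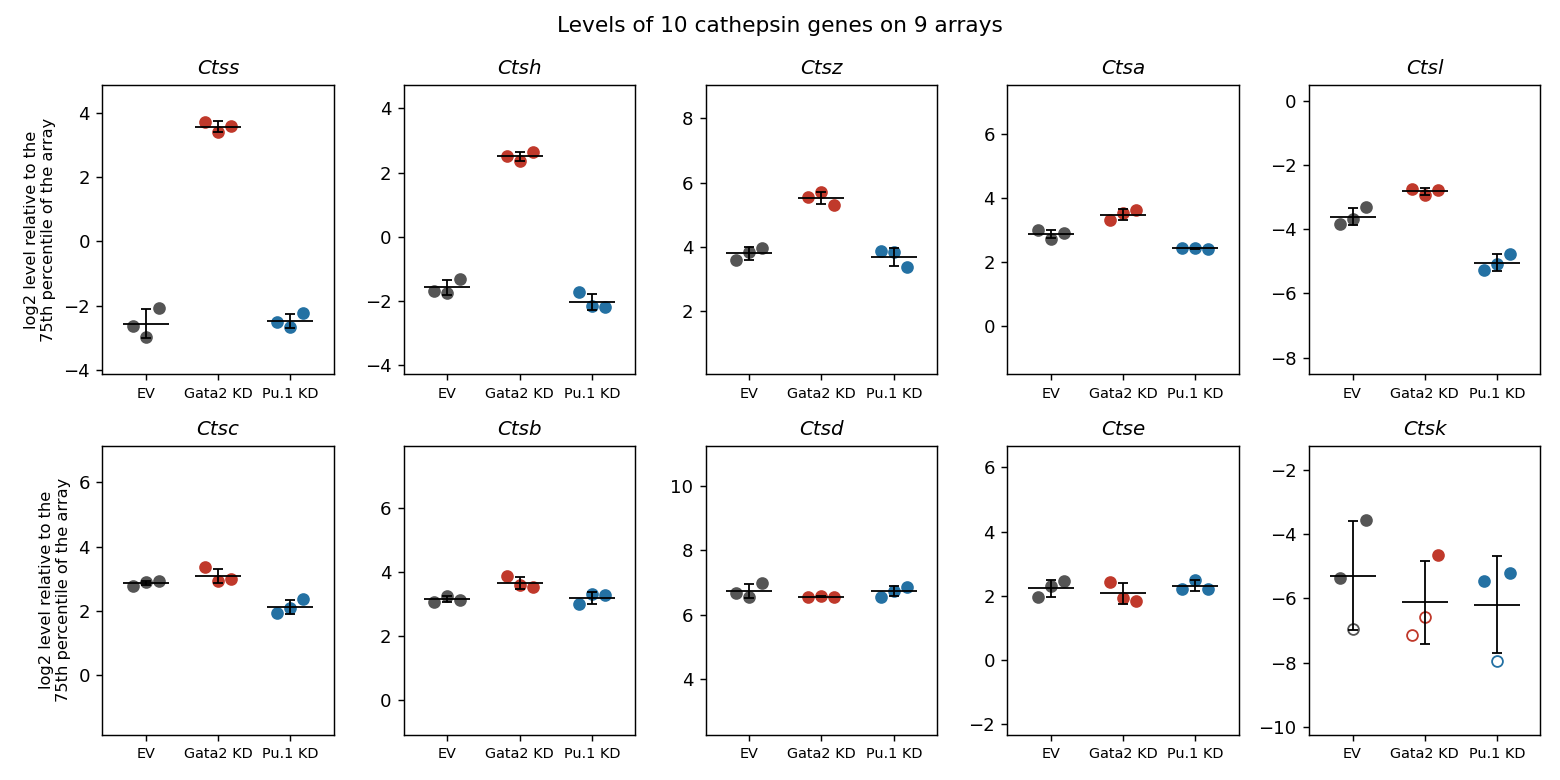
Levels of the 10 cathepsin genes on the 9 arrays, as log2 processed signal relative to the 75th percentile of the array (1 probe per gene, each panel spanning the same range in log2 units). Points are arrays in replicate order, open points were not well above background, and bars give the mean and SD of the 3 arrays of a group. Ctss, Ctsh and Ctsz in Gata2 KD lie far above the other 2 groups, while Ctsd and Ctse overlap across all groups.

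Ctss encodes cathepsin S, an endopeptidase that stays active at neutral pH and processes the invariant chain. Its level was -2.64, -2.98 and -2.07 in EV replicates 1 to 3. In Gata2 KD it was 3.72, 3.40 and 3.60. In Pu.1 KD it was -2.51, -2.67 and -2.23. Every Gata2 KD sample was thus far above every other sample, and EV and Pu.1 KD overlapped. In intensity units the signal went from between 62.5 and 116 in EV to between 4913 and 6530 in Gata2 KD. The change was 6.13 on the log2 scale (SE 0.24, n = 3 per group), or 70.1-fold with a 95% interval of 47.8 to 103 (limma adjusted p = 7.49e-06). It was seen on each slide, with differences of 5.46 to 6.70. Pu.1 KD differed from EV by 0.09 (95% interval -0.46 to 0.65, adjusted p = 1.00), and Gata2 KD was higher than Pu.1 KD by 6.04 (adjusted p = 3.34e-06). After normexp background correction the rise over EV was smaller, 5.21 on the log2 scale, below the lower end of the 95% interval (5.58), and still called.

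Ctsh encodes cathepsin H, mainly an aminopeptidase. EV replicates 1 to 3 had levels of -1.68, -1.74 and -1.30. The Gata2 KD samples had 2.51, 2.36 and 2.65. Those of Pu.1 KD had -1.73, -2.15 and -2.19. The Gata2 KD samples again stood above all others, and the Pu.1 KD samples overlapped with EV. Ctsh rose by 4.08 (SE 0.19), or 16.9-fold with a 95% interval of 12.5 to 22.8 (limma adjusted p = 1.41e-05), with differences of 3.65 to 4.33 within slides. In Pu.1 KD the difference from EV was -0.45 (95% interval -0.88 to -0.02, adjusted p = 0.370). The direct difference between the knockdowns was 4.53 (adjusted p = 3.77e-06).

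Ctsz encodes cathepsin Z (also called X), a carboxypeptidase. It was measured at 3.58, 3.86 and 3.98 in EV, at 5.54, 5.71 and 5.32 in Gata2 KD and at 3.86, 3.83 and 3.38 in Pu.1 KD. Gata2 KD lay above both other groups, which overlapped. The rise was 1.72 (SE 0.19), or 3.29-fold with a 95% interval of 2.43 to 4.45 (limma adjusted p = 0.00117), and the differences within slides, 1.68 to 1.74, were almost the same on each slide. The second Ctsz probe gave 1.70 (adjusted p = 0.000328). Pu.1 KD differed from EV by -0.11 (95% interval -0.55 to 0.32, adjusted p = 0.976). Gata2 KD was higher than Pu.1 KD by 1.83 (adjusted p = 0.000466).

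Ctsa encodes cathepsin A, the serine carboxypeptidase that also holds the sialidase NEU1 and beta-galactosidase (GLB1) in a protective complex. Its levels were 2.99, 2.73 and 2.91 in EV, 3.30, 3.53 and 3.61 in Gata2 KD and 2.44, 2.44 and 2.42 in Pu.1 KD, so the 3 groups did not overlap and were ordered from Gata2 KD through EV to Pu.1 KD. The rise in Gata2 KD was 0.61 (SE 0.14), or 1.52-fold with a 95% interval of 1.22 to 1.89, and its limma adjusted p of 0.0435 was close to the threshold. The call was lost under 16 of 23 other settings, among them the omission of each array other than Gata2 KD replicate 1 (adjusted p from 0.0723 to 0.187), and it was kept with the slide as a block (adjusted p = 0.0184). A second Ctsa probe gave 0.70 (adjusted p = 0.0136), and the third, a dim one, 0.60 (adjusted p = 0.660). The difference of Pu.1 KD from EV was -0.44 (adjusted p = 0.181), and that between the knockdowns was 1.05 (adjusted p = 0.0017). Of the complex partners, Neu1 rose by 1.07 in Gata2 KD (adjusted p = 0.0108) and Glb1 fell by 0.78 (adjusted p = 0.0153).

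Ctsl encodes cathepsin L, an endopeptidase of broad specificity. The levels were -3.84, -3.68 and -3.32 in EV, -2.74, -2.94 and -2.80 in Gata2 KD and -5.28, -5.08 and -4.77 in Pu.1 KD. The 3 groups did not overlap and lay in the same order as for Ctsa. The probe was dim, with 38.6 to 48.9 intensity units in EV, 60.8 to 77.7 in Gata2 KD and 11.9 to 17.8 in Pu.1 KD, all well above background by the scanner's test. In Pu.1 KD Ctsl fell by 1.43 (SE 0.19), or 2.70-fold with a 95% interval of 1.99 to 3.65 (limma adjusted p = 0.00844), with differences of -1.97 to -0.93 within slides. The fall was smaller, at -0.44, and not called after normexp background correction (adjusted p = 0.175). In the deposited log2 values, whose processing is not given, it was -0.58 (adjusted p = 0.0497). In Gata2 KD the difference from EV was 0.79 (SE 0.19, adjusted p = 0.0567). It passed the threshold when EV replicate 3 was left out (0.93, adjusted p = 0.0321). Under 20 of 23 other settings it stayed uncalled, and it ranged from 0.41 to 0.95 over the 23. Gata2 KD and Pu.1 KD differed by 2.22 (adjusted p = 0.000158), and by 0.85 after normexp correction, which was also called.

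Ctsc encodes cathepsin C, the dipeptidyl peptidase that activates granule serine proteases. The levels in EV were 2.78, 2.90 and 2.92, those in Gata2 KD 3.35, 2.93 and 2.99, and those in Pu.1 KD 1.93, 2.09 and 2.36. All Pu.1 KD samples lay below all others, and the lowest Gata2 KD sample was barely above the highest EV sample. Pu.1 KD differed from EV by -0.74 (SE 0.17, limma adjusted p = 0.067), with differences of -0.99 to -0.42 within slides. With the slide as a block the adjusted p was 0.049979, just past the threshold. The change in Gata2 KD was 0.22 (95% interval -0.17 to 0.61, adjusted p = 0.729). Between the knockdowns the difference of 0.96 was called (adjusted p = 0.00787).

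Ctsb encodes cathepsin B, an endopeptidase that also removes dipeptides from the carboxyl end. It was at 3.07, 3.26 and 3.14 in EV, at 3.87, 3.60 and 3.52 in Gata2 KD and at 2.99, 3.30 and 3.29 in Pu.1 KD. The Gata2 KD samples were above all others, and the other 2 groups overlapped. The difference of Gata2 KD from EV, 0.51 (SE 0.16, limma adjusted p = 0.133), did not pass the threshold, although it was 0.45 to 0.61 on every slide. It passed with normexp correction, with quantile normalization, with eBayes trend and robust settings and in the deposited values (adjusted p from 0.0039 to 0.0406). Pu.1 KD differed from EV by 0.04 (95% interval -0.32 to 0.39, adjusted p = 1.00). Gata2 KD was higher than Pu.1 KD by 0.47 (adjusted p = 0.118), a difference that was called with the slide as a block (adjusted p = 0.0438). The second, dimmer Ctsb probe gave 0.24 in Gata2 KD (adjusted p = 0.821).

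The aspartic cathepsins did not pass the test in any comparison. Ctsd encodes cathepsin D, the main aspartic endopeptidase of lysosomes, and its levels were 6.67, 6.56 and 6.98 in EV, 6.55, 6.57 and 6.54 in Gata2 KD and 6.56, 6.74 and 6.87 in Pu.1 KD. These ranges overlapped. The difference from EV was -0.18 in Gata2 KD (95% interval -0.53 to 0.17, limma adjusted p = 0.791) and -0.01 in Pu.1 KD (95% interval -0.36 to 0.34, adjusted p = 1.00). This probe read 41040 to 61401 intensity units, and a second Ctsd probe, at 4567 to 7790 units, gave 0.01 and 0.23 (adjusted p = 0.997 and 0.838). Ctse encodes cathepsin E, a related aspartic protease of endosomal compartments, with levels of 1.95, 2.29 and 2.47 in EV, 2.44, 1.95 and 1.84 in Gata2 KD and 2.23, 2.50 and 2.20 in Pu.1 KD. Its differences from EV were -0.16 (95% interval -0.65 to 0.32) and 0.07 (95% interval -0.41 to 0.55), with adjusted p of 0.914 and 1.00.

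Ctsk encodes cathepsin K, the collagen-degrading protease of osteoclasts, and was hardly measurable. Its probe was well above background on 2 of 3 EV arrays, 1 of 3 Gata2 KD arrays and 2 of 3 Pu.1 KD arrays, and read 2.03 to 41.5 intensity units. The levels were -5.35, -6.95 and -3.56 in EV, -7.14, -6.56 and -4.66 in Gata2 KD and -5.45, -7.94 and -5.21 in Pu.1 KD. The arrays of a group thus differed widely. The SE of a difference was 1.06, and that of Gata2 KD from EV had a 95% interval of -3.25 to 1.59, so that a change was not detectable at this signal (limma adjusted p = 0.912). Of the osteoclast markers, limma called 0 of 7 in either comparison against EV (1 in each at an unadjusted p under 0.05). The summed level of the list, in which the brightest probes weigh most, was 4.37 to 5.63 times the 75th percentile in Gata2 KD and 3.75 to 5.69 times in EV.

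**Figure D2:**
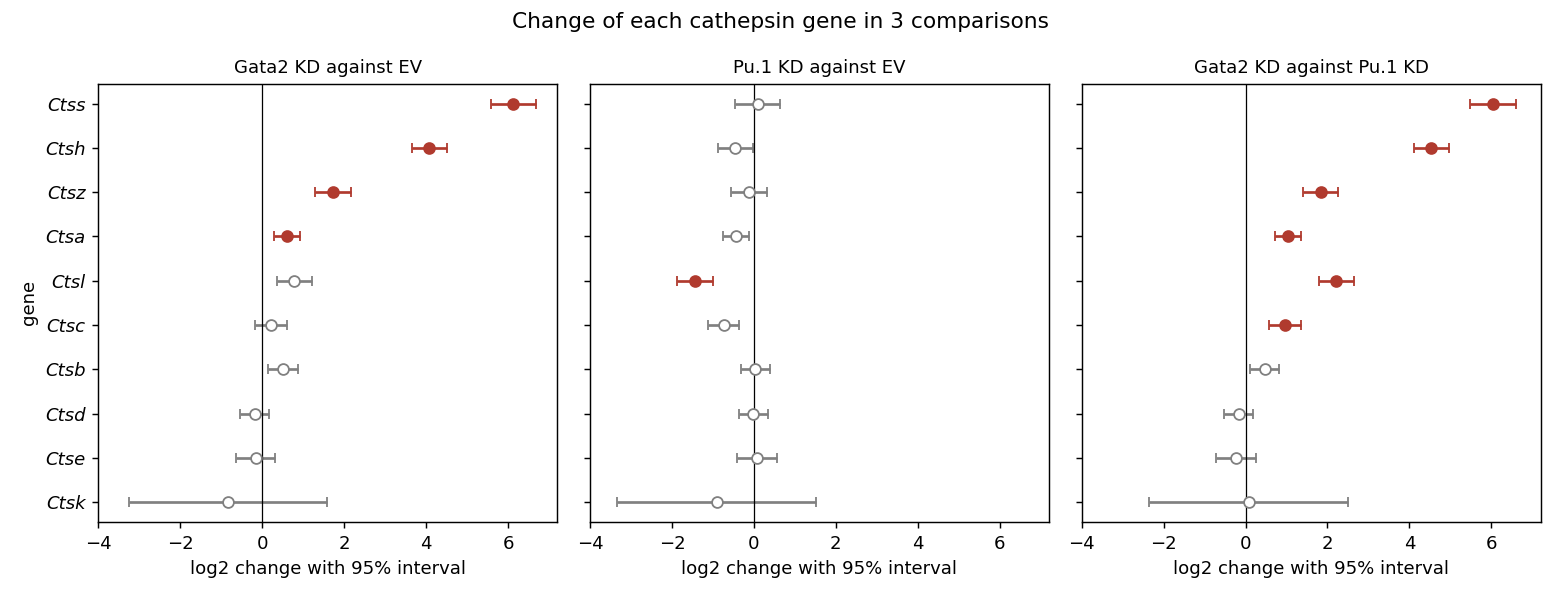
Log2 change of each cathepsin gene in the 3 comparisons, with its 95% interval from limma. Filled points passed an adjusted p of 0.05. Leaving out Ctsk, whose interval in Gata2 KD spans -3.25 to 1.59, the changes in Gata2 KD range from -0.18 (Ctsd) to 6.13 (Ctss), and the only filled point in Pu.1 KD against EV is Ctsl.

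By catalytic class, 3 of the 7 cysteine cathepsins were called higher in Gata2 KD (Ctss, Ctsh and Ctsz), 1 of 1 serine cathepsin (Ctsa, close to the threshold) and 0 of 2 aspartic cathepsins. Over all named genes 4.21% were called higher, and the classes hold too few genes to be compared. Within the cysteine class the changes spanned 0.22 (Ctsc) to 6.13 (Ctss) on the log2 scale, leaving out Ctsk, whose probe was near background. The pair of members with the most similar pattern over the 9 arrays was Ctsd and Ctse, whose levels, each centred on its own mean, had a root mean square difference of 0.22. The next was Ctsa and Ctsc, with 0.28.

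**Figure D3:**
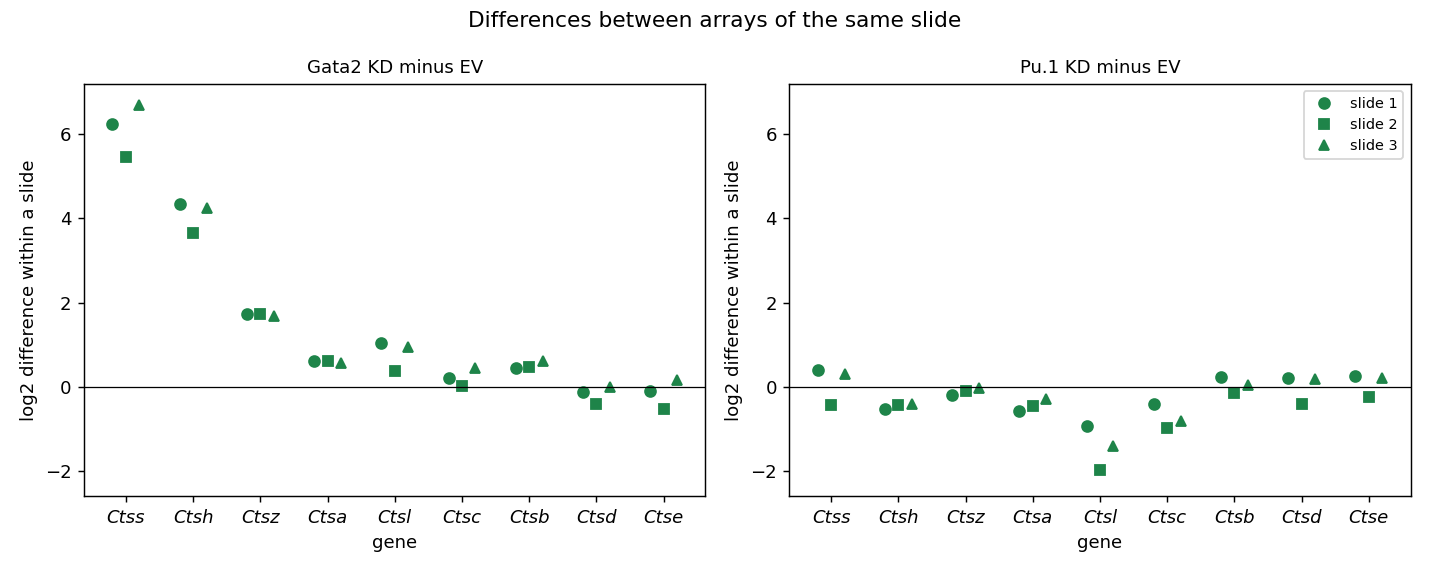
Differences between arrays of the same slide for 9 cathepsin genes, as log2 Gata2 KD minus EV (left) and Pu.1 KD minus EV (right), 1 symbol per slide. Ctsk is left out because its probe was not well above background on every array. Ctss, Ctsh, Ctsz, Ctsa, Ctsl, Ctsc and Ctsb are above 0 on all 3 slides on the left, and Ctsl, Ctsc, Ctsa, Ctsh and Ctsz are below 0 on all 3 slides on the right.

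For the cathepsins called against EV with a change of at least 2-fold, the 3 named genes with the nearest pattern over the 9 arrays were taken among 15490 genes, by the root mean square difference of centred log2 levels. Nearest to Ctss were Trem2 (0.33), a receptor of macrophages and microglia, Tgfbi (0.52) and Sirpa (0.55), a myeloid inhibitory receptor. Trem2 rose by 6.13 in Gata2 KD, as much as Ctss, and differed by 0.12 in Pu.1 KD (adjusted p = 0.993). The genes nearest to Ctsh were Itgb5 (0.21), Irf8 (0.22), a transcription factor of monocytes and dendritic cells, and Chil1 (0.23). Irf8 rose by 4.38 in Gata2 KD (adjusted p = 3.47e-06). For Ctsz they were Gstm3 (0.18), Rgs14 (0.18) and Paox (0.19), and for Ctsl Antxr2 (0.16), Jdp2 (0.17) and Cd79b (0.19). Likeness of pattern over 9 arrays in 3 groups is a description only, and genes chosen for it change alike by that choice.

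Genes of the natural inhibitors of cysteine cathepsins changed in both directions. Of 7 tested, 4 rose in Gata2 KD (4.21% of all named genes), 1 fell (2.95%) and 2 were not called, with a median of 1.14. Those that rose were Stfa3 (3.42), Stfa2l1 (3.02) and Csta1 (2.09), which encode intracellular stefins, and Cst3 (1.14), which encodes the secreted cystatin C. The one that fell was Cst7 (-1.42), which encodes cystatin F, an inhibitor of cathepsin C. Cstb, another stefin, was at 0.40 (adjusted p = 0.154). In Pu.1 KD 2 of the 7 fell (Stfa2l1 by 2.46 and Csta1 by 2.26), and 0 rose, beside 2.16% and 1.45% of all named genes. The mouse stefin A genes are close copies of each other, so that a probe for one may also report its paralogs.

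Genes that act with single cathepsins were examined as well. Of 7 genes of the MHC class II pathway, in which cathepsins S and L act, 6 rose in Gata2 KD and 1 was not called. Their median was 2.13. In this comparison 4.21% of all named genes were called higher and 2.95% lower. Cd74, the invariant chain, rose by 5.13 (adjusted p = 5.43e-06), H2-Aa by 4.20 and H2-Ab1 by 4.13. In Pu.1 KD 4 of the 7 fell, with Cd74 at -1.18 (adjusted p = 0.0136), while Ctss was at 0.09. Over all named genes 2.16% were called lower in Pu.1 KD and 1.45% higher. Among 6 serine proteases activated by cathepsin C, 4 rose in Gata2 KD and 2 fell. The neutrophil elastase gene Elane rose by 3.05 and Prtn3 by 2.95, while Gzmb fell by 1.92 and the mast cell chymase gene Cma1 by 1.23. In Pu.1 KD Prtn3 fell by 1.46, Prss57 fell by 0.99, and Cma1 rose by 1.49.

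Further genes of the lysosome were grouped by role. Over all named genes 4.21% were called higher and 2.95% lower in Gata2 KD, and 1.45% and 2.16% in Pu.1 KD. Of 9 other lysosomal peptidases, 2 rose in Gata2 KD, Scpep1 (1.66), a serine carboxypeptidase related to cathepsin A, and Napsa (0.94), an aspartic protease. The median of this list was 0.00, and Lgmn, which processes several cathepsins, was at -0.10 (adjusted p = 0.962). In the list of 12 sorting genes, 2 rose, Psap (2.35), the precursor of the saposins, and Scarb2 (1.01), the receptor of glucocerebrosidase. Gnptab, which makes the mannose 6-phosphate tag of cathepsins, fell by 0.84 in Gata2 KD (adjusted p = 0.0247) and by 0.85 in Pu.1 KD (adjusted p = 0.0388). Among 15 glycosidases, sulfatases and lipases, 2 rose and 2 fell in Gata2 KD, and 3 fell in Pu.1 KD. Of 16 genes of the lysosomal membrane and its proton pump, 2 rose in Gata2 KD (Tcirg1 by 2.25 and Atp6v0c by 0.95) and limma called 0 in Pu.1 KD (1 higher and 2 lower at an unadjusted p under 0.05). Among the 4 transcription factors of the MiT/TFE family, which act on lysosomal genes, Tfec rose by 2.90 in Gata2 KD, Mitf was at 0.83 (adjusted p = 0.0874), and Tfeb was at 0.18 (adjusted p = 0.912).

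**Figure D4:**
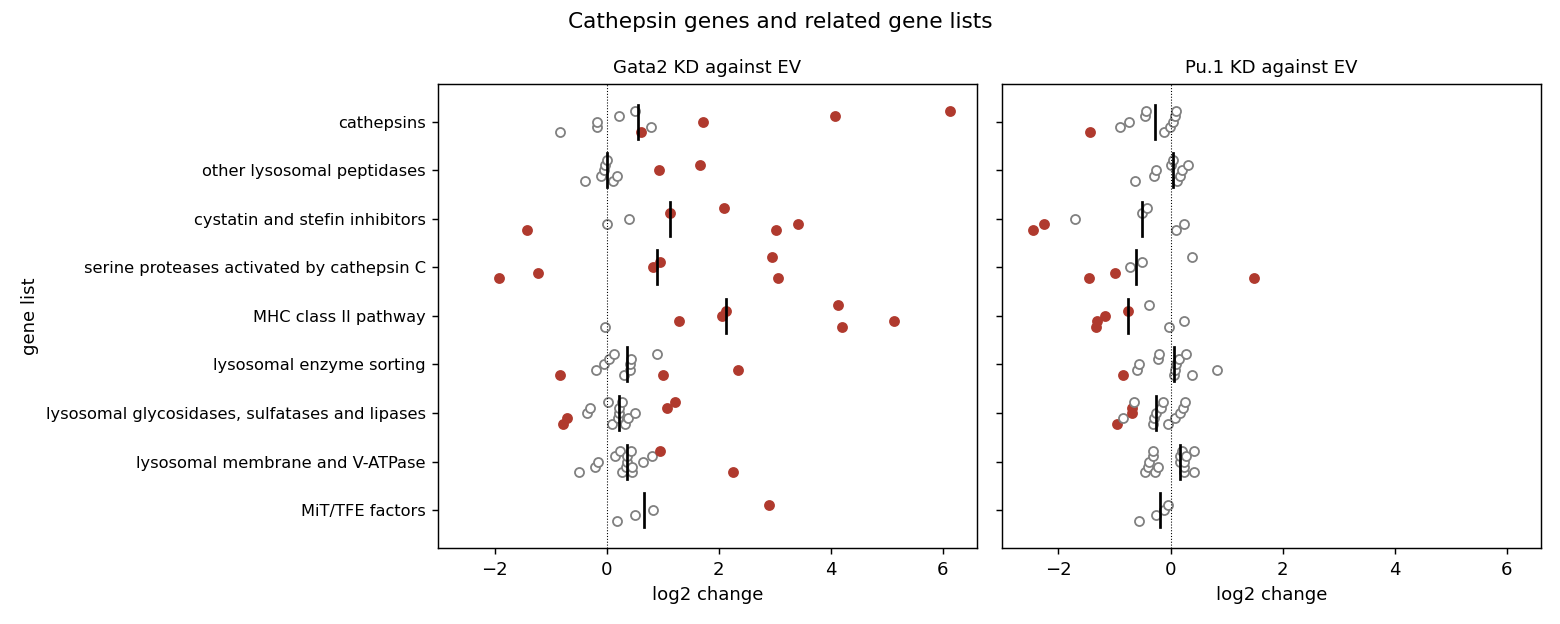
Log2 change of each tested gene of 9 lists in Gata2 KD (left) and Pu.1 KD (right) against EV. Filled points passed an adjusted p of 0.05, and the vertical bar is the median of the list. In Gata2 KD the median is 0.56 for the cathepsins, 2.13 for the MHC class II pathway and 0.00 for the other lysosomal peptidases.

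Markers of several blood cell types changed in Gata2 KD, in both directions. For comparison, 4.21% of all named genes were called higher and 2.95% lower in Gata2 KD, and 1.45% and 2.16% in Pu.1 KD. Of the monocyte and macrophage markers, 5 of 8 rose, among them Csf1r by 4.52 and Cd14 by 3.17. Mrc1, also called, was not well above background on any EV or Pu.1 KD array. The summed level of this list, in multiples of the array's 75th percentile, was 4.95 to 5.85 in EV, 28.3 to 30.2 in Gata2 KD and 3.05 to 3.69 in Pu.1 KD. Such sums join probes whose levels cannot be compared between genes, so that the brightest weigh most, and serve only to compare groups. The neutrophil markers rose in 9 of 9 cases, with sums of 117 to 132 in EV, 905 to 1041 in Gata2 KD and 20.5 to 27.1 in Pu.1 KD. Of the mast cell and basophil markers 5 of 7 fell in Gata2 KD, with sums of 110 to 129 in EV, 22.6 to 24.4 in Gata2 KD and 71.0 to 79.4 in Pu.1 KD. In the stem and progenitor list 3 of 8 genes rose in Gata2 KD (Cd34 by 2.17, Lmo2 by 0.93 and Kit by 0.75). Another 3 fell (Meis1, Tal1 and Gata2, the target of the shRNA). The sums of this list, which include Gata2, overlapped, at 76.3 to 99.6 in EV and 78.1 to 94.4 in Gata2 KD. The dendritic cell list had 1 of 7 genes called higher, and the stromal and lymphoid lists 0 of 5 and 0 of 4 in either direction, also at an unadjusted p under 0.05 in limma. In Pu.1 KD 8 of 9 neutrophil markers and 2 of 8 monocyte and macrophage markers fell, while Ctss, Ctsh and Ctsz did not pass the test. The part of these cell types in the cathepsin values was not tested.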

How the data were processed

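Total RNA (150 ng) of 9 FDCPmix samples was labelled with Cy3 and hybridized to single-colour Agilent mouse arrays. The authors deposited the scanner intensity values of each array (Feature Extraction 10.1.1.1, background-subtracted, not normalized between arrays) and 1 table of log2 values, whose processing was not given in the sources used here and which served as an alternative. Groups and replicate numbers came from the sample titles.

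Here, log2 signals of replicate spots were averaged, leaving out control spots and those with an outlier flag, and the 75th percentile over the probes of the array was subtracted. Probes well above background on at least 3 of 9 arrays were tested (36585 of 41174). Accessions were matched to RefSeq (GRCm38.p6), which named 23374 probes. The array design uses another build, so that coordinates are given for the RefSeq promoter windows and not for probes. limma 3.58.1 in R 4.3.3 was fitted on group means over all 9 arrays with 2-sided tests. The code was also run on simulated data, in which samples were independent and slides had no effect. The precision is limited by the number of arrays, 3 per group. The samples are described as triplicates of 1 line, so the p-values measure the spread between these samples, which may be technical.

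The cathepsins, gene lists, markers and first 3 motifs were chosen with earlier results of these data known. Genes named besides the cathepsins were the targets, up to 3 called members per list and direction with the largest change, Lgmn, Cd74, Cst3, Cstb, Neu1 and Glb1, and the 3 nearest patterns. Markers named, the values of Irf8 and Trem2, and the uncalled Mitf and Tfeb were chosen after their values were seen. Alternatives were the replicate number or the slide as a block, normexp correction, quantile or median scaling, other filters on dim probes, all flagged spots retained, a trended and robust eBayes, the authors' log2 table, only the groups compared, a 2-fold minimum, the mean of all probes of a gene and each array left out. The 75th percentile over spots was added after seeing the data.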

Additional observations from a re-analysis of the deposited data

How the results depend on the processing

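The rises of Ctss, Ctsh and Ctsz in Gata2 KD were called under all 23 alternatives (5.21 to 6.38, 3.69 to 4.22 and 1.60 to 1.82 on the log2 scale), and the number of cathepsin genes called in this comparison was 3 to 6. Against Pu.1 KD it was 5 to 7. In Pu.1 KD against EV the count of 1 became 2, with Ctsc added, with the slide as a block, with quantile normalization, with the filter on all 9 arrays, with eBayes trend and robust settings and with the deposited log2 values. It became 0 with only the groups compared in the fit, where the adjusted p of Ctsl was 0.0599. With normexp correction Ctsl was replaced by Ctsc. The cause of these shifts was not tested.

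The changes of sign concerned differences that were called in no setting, those of Ctsk being imprecise (SE 1.06) and the others small. Ctsd in Pu.1 KD against EV was 0.087 with normexp correction, 0.028 with median scaling, 0.12 in the deposited values and 0.11 as the mean of its probes. With each array left out in turn, the Pu.1 KD difference from EV ranged from -0.016 to 0.14 for Ctsb, -0.10 to 0.11 for Ctsd, -0.073 to 0.19 for Ctse, -0.12 to 0.34 for Ctss and -0.23 to 0.042 for Ctsz. For Ctsk the range was -1.67 to 0.034 in Gata2 KD against EV and -0.79 to 0.58 against Pu.1 KD, and the filter on all 9 arrays left it without a value. Signals near background limit what can be said of Ctsk and of the size of the changes in Ctsl and Ctss.

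The replicate numbers showed no pairing of samples apart from that by slide. Deviations of same-numbered samples on different slides correlated at -0.55 to 0.35, and those of differently numbered samples on different slides at -0.63 to 0.35. On the same slide, 2 same-numbered pairs correlated at 0.52 to 0.65 and 7 differently numbered pairs at -0.04 to 0.72. With the replicate block 3, 1 and 6 cathepsin genes were called in Gata2 KD and Pu.1 KD against EV and between the knockdowns, and Ctsa in Gata2 KD had an adjusted p of 0.161.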
